A study of Rattus norvegicus with 13 samples.

Results

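The genes described here build triglyceride and supply its glycerol backbone. They are Acsl1, Pck1, Gpd1, Gk, Gpam, Agpat2, Lpin1, Dgat1, Dgat2 and Bscl2, 10 of the 14506 genes measured in the fat of 13 female rats. They were taken by gene symbol, with the brightest probe of each symbol, and each had a single probe on the array. The set was selected with earlier results of the comparison of father's diet known, so the differences between the diet groups below are a description of the chosen genes and support nothing further.

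All animals were Sprague Dawley daughters of males mated at 15 weeks of age to chow-fed females. The fathers of 7 daughters ate standard chow with 9% fat (control fathers), and the fathers of 6 daughters ate pellets with 43% fat (high-fat fathers). Every daughter was herself weaned onto chow at 3 weeks, and her fat was taken at 14 weeks, so the groups differ in the diet of the father only, as far as the labels say. RNA of each daughter was hybridised to 1 Affymetrix array, and levels are log2 values, on which 1 unit is a doubling. The labels name no fat depot, and which daughters are sisters is not given. Each p-value thus sets a difference or relation against the spread among these daughters only. Any sisters are treated as independent, so p-values may be too small and intervals too narrow.

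Fat cells store energy as triglyceride, in which fatty acids are joined to glycerol. Acyl-CoA synthetases activate the fatty acids, glycerol 3-phosphate is the backbone, and the backbone is acylated and dephosphorylated step by step before the diacylglycerol acyltransferases add the last fatty acid. White fat has been regarded as poor in glycerol kinase, so much of its glycerol 3-phosphate comes from glucose or, by glyceroneogenesis, from pyruvate through the cytosolic phosphoenolpyruvate carboxykinase encoded by Pck1.

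Promoter windows of RefSeq on assembly GRCr8, from 250 bases before to 50 bases after the start site, were matched to 7 of the 10 genes (Pck1, Agpat2, Gpam, Lpin1, Acsl1, Bscl2 and Gk). A set of 3 is printed, each 5′ to 3′ on the strand of its gene. Pck1 is shown because its level followed that of the adipocyte markers, and Agpat2 and Gk because they were high in the same arrays as Ucp1. The windows are chr3:182348322-182348621 on the plus strand for Pck1, chr3:29826108-29826407 on the minus strand for Agpat2 and chrX:54189682-54189981 on the minus strand for Gk. Capitals mark 4 motifs on either strand: the nuclear receptor hexamer AGGTCA, the cyclic AMP response element core TGACG, the box CCAAT and the GC box GGGCGG, whose matches can overlap each other.
Pck1: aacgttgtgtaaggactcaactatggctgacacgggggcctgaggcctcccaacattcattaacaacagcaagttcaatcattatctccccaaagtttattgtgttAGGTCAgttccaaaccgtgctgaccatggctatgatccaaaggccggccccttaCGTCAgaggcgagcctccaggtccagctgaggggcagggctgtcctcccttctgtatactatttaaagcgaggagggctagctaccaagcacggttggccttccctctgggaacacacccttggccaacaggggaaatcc
Agpat2: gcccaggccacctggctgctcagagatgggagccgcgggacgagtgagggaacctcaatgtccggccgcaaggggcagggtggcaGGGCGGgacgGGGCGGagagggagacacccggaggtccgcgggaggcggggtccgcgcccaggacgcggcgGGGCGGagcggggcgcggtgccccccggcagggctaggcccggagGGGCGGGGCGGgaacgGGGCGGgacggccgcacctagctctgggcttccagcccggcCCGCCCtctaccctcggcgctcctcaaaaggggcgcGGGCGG
Gk: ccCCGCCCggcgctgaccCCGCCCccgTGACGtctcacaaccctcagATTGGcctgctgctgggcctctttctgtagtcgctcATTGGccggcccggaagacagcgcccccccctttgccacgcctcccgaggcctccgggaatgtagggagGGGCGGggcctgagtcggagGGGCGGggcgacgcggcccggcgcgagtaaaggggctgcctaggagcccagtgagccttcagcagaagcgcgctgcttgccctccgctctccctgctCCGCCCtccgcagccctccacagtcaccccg

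The Pck1 window held AGGTCA, the hexamer that many nuclear receptors bind, from 144 to 139 bases before the start site. It also held TGACG, the core of the cyclic AMP response element, on the minus strand from 90 to 86 bases before it. AGGTCA was present in 16.2% of all 33469 promoter windows of the same length and TGACG in 21.2%. The Agpat2 and Gk windows were rich in GC, at 78.3% and 72% of bases against a median of 51.7% over all windows, and the Pck1 window had 53.3%. GGGCGG, the box bound by Sp1-type factors, matched 8 times in Agpat2 and 5 times in Gk, and 33.1% of all windows held it at least once. The Gk window also held TGACG, from 223 to 219 bases before the start site. Of the 7 windows, 2 held AGGTCA (Pck1 and Bscl2), 2 held TGACG (Pck1 and Gk), 3 held GGGCGG (Agpat2, Gk and Bscl2) and 5 held CCAAT, which 37.5% of all windows hold. A direct repeat of AGGTCA with 1 base between the copies was in 0 of the 7 windows and in 0.0538% of all windows. The full cyclic AMP response element (TGACG followed by TCA, in 1.83% of all windows), the E-box CACGTG (6.42%) and the TATA box TATAAA (14.2%) were also in 0 of the 7. These are matches of letters and are not measured binding sites.

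The pieces carried the defining markers of fat. Adipoq, Fabp4, Lpl and the other markers of a list of 14 adipocyte genes had mean levels over the arrays of 9.03 to 13.84, none of the 10 genes is on that list, and array medians over all probes ran from 7.66 to 7.72. Other tissue differed from piece to piece. The mean of 11 skeletal muscle markers was 12.02 to 12.19 in the control daughters 662 and 664 and the high-fat daughter 629, 9.29 in the high-fat daughter 619, and 7.15 to 7.30 in the other 9 arrays. Ucp1, the uncoupling protein of brown and beige fat cells, was at 11.02 and 10.96 in the high-fat daughters 629 and 663, at 9.76 and 9.28 in the control daughters 662 and 658, and at 6.11 to 7.40 in the other 9. The daughters' numbers fall in 2 ranges, 619 to 631 (3 control and 4 high-fat) and 656 to 664 (4 control and 2 high-fat). What the ranges stand for is not in the labels, so each difference was also taken within each range.

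Across all 14506 genes, limma with Benjamini-Hochberg adjustment called 0% at an adjusted p of 0.05, and the smallest adjusted p was 0.53. None of the 10 genes therefore passed the test. At an unadjusted p under 0.05, a looser description, 5.42% of all genes were higher in the high-fat group and 2.54% were lower. Among the 10 genes, 9 had a higher mean in the daughters of high-fat fathers and Gpam was lower. The median of their differences was 0.17, against 0.03 over all genes, and 5 (Dgat1, Pck1, Gpd1, Acsl1 and Bscl2) were higher with an unadjusted limma p under 0.05. Bright genes as a whole leaned the same way. Of the 7253 genes above the median level, 84.4% had a higher mean in the high-fat group, their median difference was 0.09, and 8.93% were higher at an unadjusted p under 0.05. Without any covariate 5 of the 10 genes were below that p, and with the standard deviation of each array as a covariate 2 were, Dgat1 and Pck1. Since the set was chosen on this comparison, nothing is read from these counts.

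**Figure D1:**
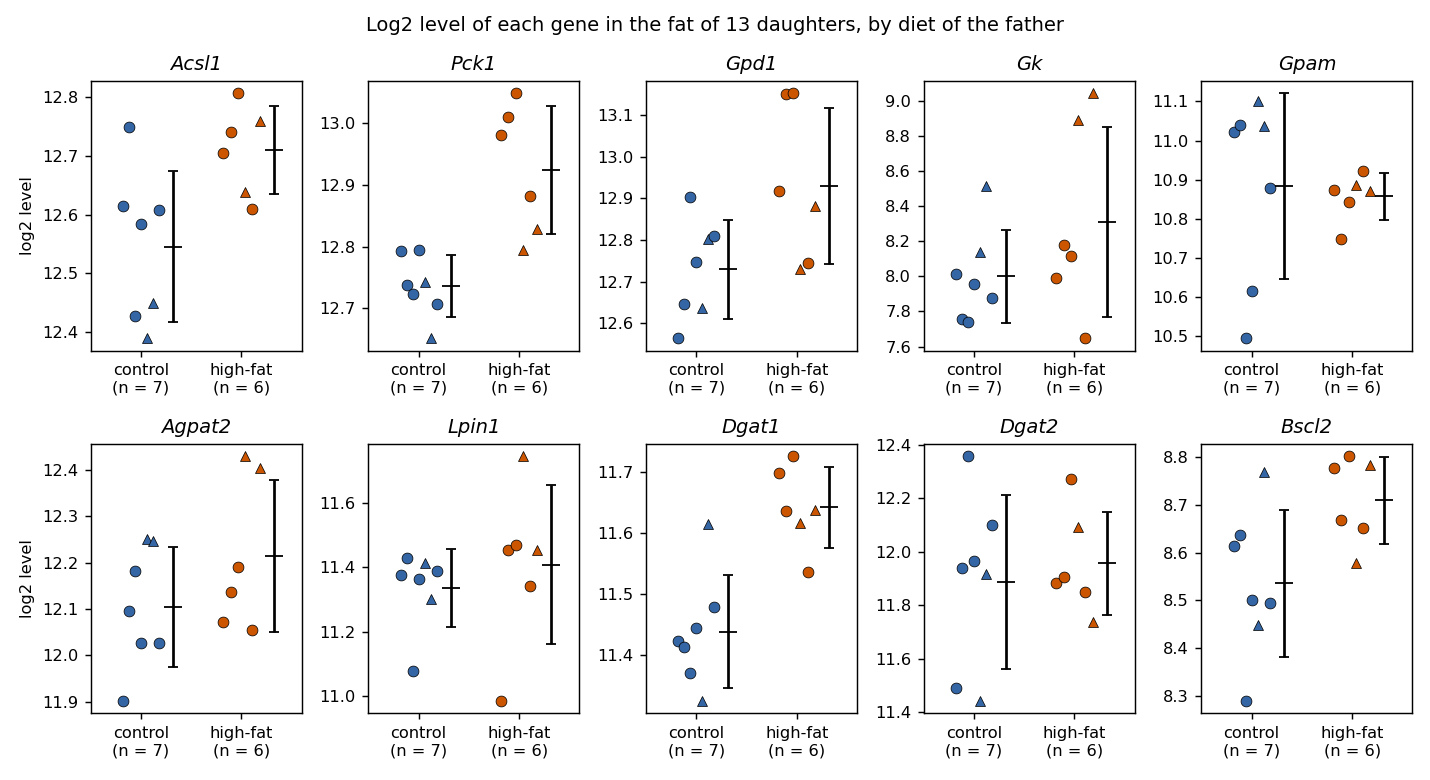
Log2 level of the 10 genes (vertical axes, one panel per gene with its own scale) in the 7 daughters of control fathers (blue) and the 6 daughters of high-fat fathers (orange). Each point is 1 array, triangles are the 4 arrays with the highest Ucp1, and the bar at the right of each group is the mean ± SD. The groups overlap or touch in all 10 panels, and the triangles lie at the top of the Agpat2 panel.

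Acsl1, the acyl-CoA synthetase that activates long-chain fatty acids in fat cells, ran from 12.39 to 12.75 (median 12.58) in the control group and from 12.61 to 12.81 (median 12.72) in the high-fat group. All 6 high-fat daughters were above the control mean, and 2 were above every control. The means were 12.55 ± 0.13 (SD, n = 7) and 12.71 ± 0.07 (SD, n = 6), a difference of 0.16 ± 0.06 (limma standard error) or 1.12-fold, with an adjusted p of 0.53. It was 0.13 within daughters 619 to 631 and 0.18 within 656 to 664.

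Pck1, the committed step of glyceroneogenesis, varied little within the groups. It ran from 12.65 to 12.79 (median 12.74) in the control daughters and from 12.79 to 13.05 (median 12.93) in the high-fat daughters. The groups met at a single value, since the high-fat daughter 629 and the control daughter 656 were both at 12.79, and the other 5 high-fat daughters were above every control. The means were 12.74 ± 0.05 (SD, n = 7) and 12.92 ± 0.10 (SD, n = 6), a difference of 0.19 ± 0.05, or 1.14-fold with a 95% interval of 1.05 to 1.23, with an adjusted p of 0.53. Both ranges gave a higher high-fat mean, by 0.21 and by 0.13.

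Gpd1, the cytosolic dehydrogenase that makes glycerol 3-phosphate from a glycolytic intermediate, was at 12.56 to 12.90 (median 12.75) in the control group. In the high-fat group it was at 12.73 to 13.15 (median 12.90), with 3 of 6 daughters above every control. The difference of 0.20 ± 0.08 had an adjusted p of 0.53. It was 0.28 within daughters 619 to 631 and 0.06 within 656 to 664. No test was run of one range against the other.

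Gk, the glycerol kinase, was the most variable of the 10 genes, with a within-group SD of 0.42. Controls ran from 7.74 to 8.51 (median 7.96) and high-fat daughters from 7.65 to 9.04 (median 8.15), so the lowest and the highest array were both in the high-fat group. The difference of 0.31 ± 0.21 had a 95% interval of -0.13 to 0.75 and an adjusted p of 0.53. Without the high-fat daughter 663 it was 0.16, without 629 it was 0.19, and without both of them and the 2 controls with high Ucp1 it was 0.11.

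Gpam, the mitochondrial glycerol 3-phosphate acyltransferase that starts acylation, was at 10.49 to 11.10 (median 11.02) in control and 10.75 to 10.92 (median 10.87) in high-fat daughters. The high-fat values lay inside the control range. The difference was -0.03 ± 0.10 with a 95% interval of -0.23 to 0.18, which leaves room for a change of either sign. Leaving out 1 array gave -0.091 (control 631) to 0.010 (control 658), and 8 of the 13 arrays each moved it by over 1.5 times.

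Agpat2, which adds the second fatty acid and whose loss in people causes congenital generalized lipodystrophy, was at 11.90 to 12.25 (median 12.09) in control daughters. The high-fat daughters ran from 12.05 to 12.43 (median 12.16), and 2 of the 6 were above every control. The difference of 0.11 ± 0.08 had a 95% interval of -0.06 to 0.28 and an adjusted p of 0.55. It was 0.067 without the high-fat daughter 629 and 0.072 without 663.

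Lpin1, the phosphatidate phosphatase that yields diacylglycerol, was at 11.08 to 11.43 (median 11.38) in control and 10.98 to 11.74 (median 11.45) in high-fat daughters. The high-fat group held the lowest array (619) and the highest (629), and 4 of its 6 daughters were above every control. The difference was 0.07 ± 0.10 with a 95% interval of -0.14 to 0.28. Single arrays moved it, to 0.157 without the high-fat daughter 619, 0.0047 without the high-fat daughter 629 and 0.029 without the control daughter 631. Without the 4 arrays with the highest Ucp1 its sign turned, to -0.02.

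Dgat1 and Dgat2 catalyse the same last acylation but are unrelated in sequence. Dgat1 ran from 11.32 to 11.61 (median 11.42) in control and from 11.54 to 11.73 (median 11.64) in high-fat daughters. The groups overlapped through 1 control, daughter 662 at 11.61, and 5 of the 6 high-fat daughters were above every control. The means were 11.44 ± 0.09 (SD, n = 7) and 11.64 ± 0.07 (SD, n = 6), a difference of 0.20 ± 0.05 or 1.15-fold, with a 95% interval of 1.06 to 1.25 and an adjusted p of 0.53. It was 0.27 within daughters 619 to 631 and 0.12 within 656 to 664.

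Dgat2 was at 11.44 to 12.36 (median 11.94) in control and 11.74 to 12.27 (median 11.89) in high-fat daughters, so the control group held both ends of its range. The difference of 0.07 ± 0.14 had a 95% interval of -0.23 to 0.37 and an adjusted p of 0.82. It was 0.11 within daughters 619 to 631 and -0.06 within 656 to 664. Leaving out 1 array gave -0.0053 (control 658) to 0.147 (control 631), and 7 of the 13 arrays each moved it by over 1.5 times. The within-group SD was 0.27 for Dgat2 and 0.08 for Dgat1, and whether the 2 genes' differences differ from each other was not tested.

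Bscl2 encodes seipin, an endoplasmic reticulum protein needed for normal lipid droplet formation. It was at 8.29 to 8.77 (median 8.50) in control and 8.58 to 8.80 (median 8.72) in high-fat daughters, and 3 of the 6 high-fat daughters were above every control. The difference of 0.17 ± 0.07 had an adjusted p of 0.53 and was 0.19 and 0.16 within the 2 ranges.

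Complete separation of the groups with the high-fat group higher was rare. All 6 high-fat arrays lay above all 7 controls for 8 genes, 0.0551% of the genes tested, and 0 of the 10 were among them. The reverse order is not given here, and nothing is read from this count.

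**Figure D2:**
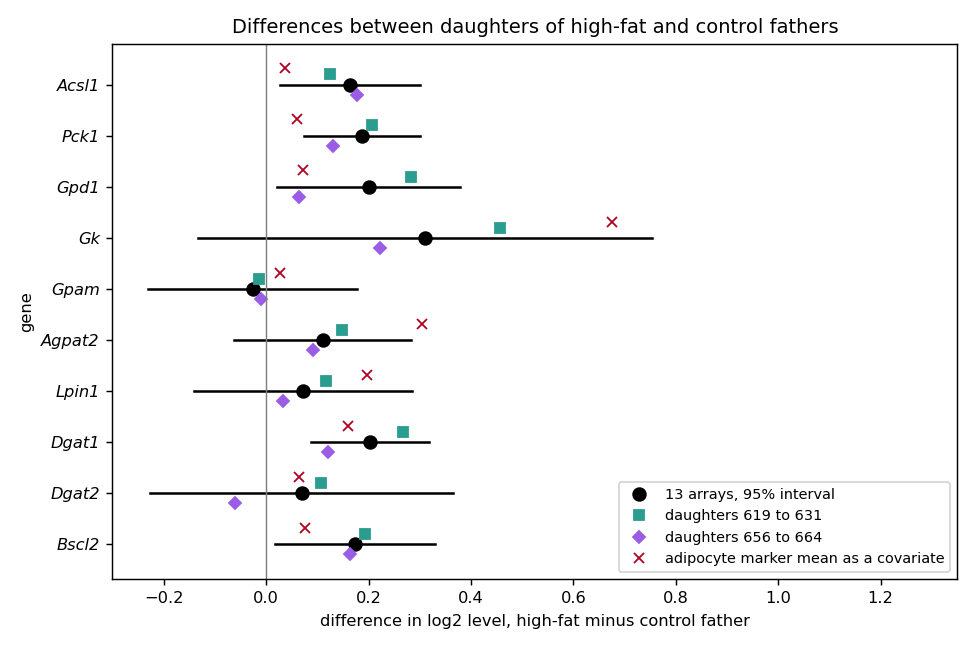
Difference in log2 level between daughters of high-fat and of control fathers (horizontal axis) for each gene (vertical axis). Black points with lines are limma estimates over 13 arrays with 95% intervals, squares and diamonds are the same difference within daughters 619 to 631 and 656 to 664, and crosses are the estimates with the adipocyte marker mean as a covariate. The intervals of Dgat1, Pck1, Gpd1, Acsl1 and Bscl2 lie above 0, and the crosses of Pck1 and Acsl1 lie near 0 (0.06 and 0.04) while that of Gk lies at 0.68.

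The adipocyte marker mean was higher in the high-fat group, without passing adjustment. It was 12.16 ± 0.05 (SD, n = 7, range 12.10 to 12.23) in control and 12.27 ± 0.08 (SD, n = 6, range 12.14 to 12.37) in high-fat daughters, with a two-sided exact permutation p of 0.00874, or 0.105 after adjustment over 12 marker lists. Of the 14 markers, 0 passed limma's adjusted threshold, and their median difference of 0.10 lay beside 0.09 over all genes above the median level. In bulk tissue, a difference in the share of fat cells and a difference in these RNAs per fat cell cannot be told apart. With that mean as a covariate the difference of Pck1 was 0.06 ± 0.06, that of Acsl1 0.04 ± 0.08 and that of Dgat1 0.16 ± 0.07, against 0.19, 0.16 and 0.20 without it. Gpd1 fell from 0.20 to 0.07 ± 0.11 and Bscl2 from 0.17 to 0.08 ± 0.10. Agpat2 and Gk went the other way, from 0.11 to 0.30 ± 0.09 and from 0.31 to 0.68 ± 0.27. Lpin1 also rose, from 0.07 to 0.20 ± 0.14. Dgat2 was at 0.07 without the covariate and 0.06 ± 0.20 with it, and Gpam at -0.03 and 0.03 ± 0.14. The adjusted p of each was 1 in that fit. The list shares Pparg, Cebpa, Plin1 and Cidec with the wider pathway list below.

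Within the groups, Pck1 followed the adipocyte markers closely. Taken as deviations from the group means, which leaves out the difference between diets, Pck1 and the marker mean had a Pearson r of 0.86 over 13 arrays (permutation p = 9.0e-05, adjusted 0.0027) and a Spearman rho of 0.80 (permutation p = 0.00154, adjusted 0.0462). It was the only relation that passed among the 30 between the 10 genes and the adipocyte, mesothelium and T cell lists. Relations to the brown fat and muscle lists were planned but not computed, because the arrays form separate clusters there. The adjustment covers only the 30 relations computed, and a larger number would raise the adjusted values. Without the 2 arrays farthest from the median of the marker mean, r was 0.74, and without the 4 arrays with the highest Ucp1 it was 0.94. In daughters 619 to 631 r was 0.99 (n = 7, exact permutation p = 0.000794) and in 656 to 664 it was 0.54 (n = 6, exact permutation p = 0.264), so the relation held in the first range and did not pass in the second. High-fat daughters 619, 620 and 624 had the highest marker means (12.31 to 12.37), the highest Pck1 (12.98 to 13.05) and the widest spread of all probes on their arrays (SD 1.96 in each). With the arrays brought again to a common distribution by quantile normalization, r was 0.80 (n = 13, permutation p = 0.00123). Array spread as a cause of the relation was not tested.

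Over all 13 arrays, the other members of the set followed the markers less closely or inversely, and none of these relations passed adjustment. The order depended on the arrays kept. Without the 4 arrays with most muscle signal, r was 0.88 for Dgat1 (0.28 over 13 arrays) and 0.79 for Pck1. Gk had an r of -0.47 over 13 arrays and 0.80 without the 4 arrays with the highest Ucp1. For Acsl1 r was 0.63 (permutation p = 0.0203, adjusted 0.203) and rho 0.72 (adjusted 0.109), with 0.65 after leaving out the 2 farthest arrays and 0.57 and 0.76 in the 2 ranges. For Agpat2 r was -0.70 (permutation p = 0.00645, adjusted 0.0967) and rho -0.62 (adjusted 0.265), with -0.71 after leaving out the 2 farthest arrays and -0.85 and -0.49 in the 2 ranges. Without the 4 arrays with the highest Ucp1 the Agpat2 value was -0.18, so it rested on those arrays.

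**Figure D3:**
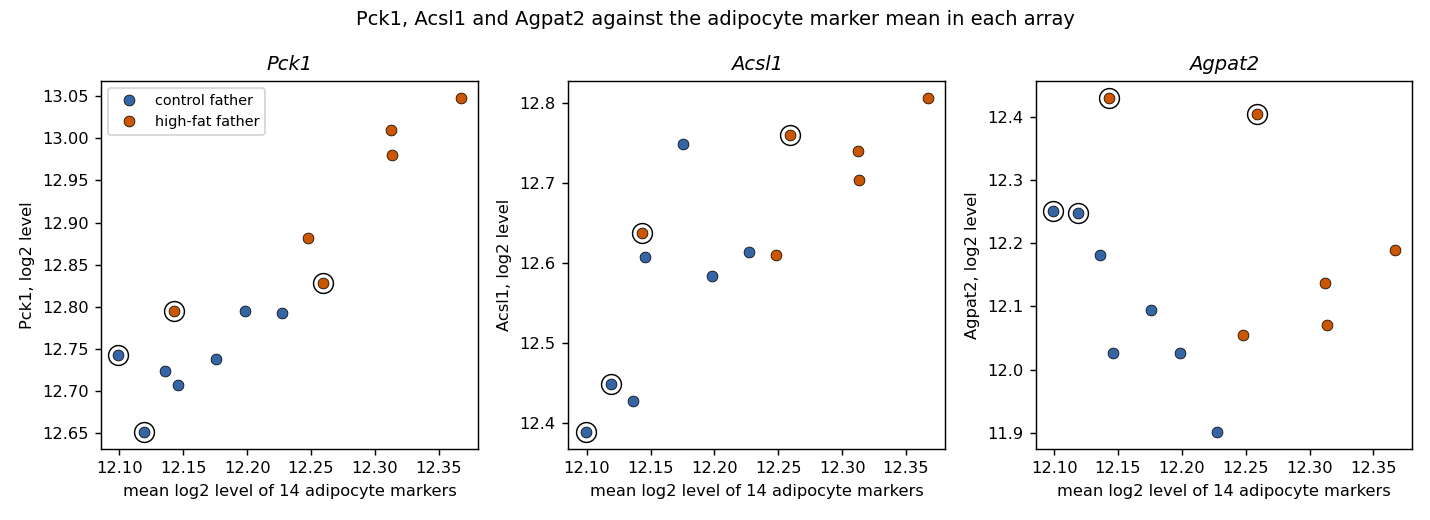
Log2 level of Pck1, Acsl1 and Agpat2 (vertical axes) against the mean log2 level of 14 adipocyte markers (horizontal axis). Each point is 1 array, blue for control and orange for high-fat fathers, and rings mark the 4 arrays with the highest Ucp1. Pck1 rises with the marker mean to 13.05 at a mean of 12.37, and the ringed arrays lie highest in the Agpat2 panel.

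Agpat2 and Gk were high where Ucp1 was high. Agpat2 was at 12.25 to 12.43 in the 4 arrays with the highest Ucp1 and at 11.90 to 12.19 in the other 9, without overlap. Gk was at 8.14 to 9.04 in those 4 arrays and at 7.65 to 8.18 in the other 9, and 3 of its 4 highest arrays were among them. The 2 daughters with Ucp1 near 11, 629 and 663, were both from high-fat fathers, and they had the highest Gk (8.89 and 9.04) and the highest Agpat2 (12.43 and 12.40). Pck1 was not high in these arrays, at 12.65 to 12.83 in the 4 arrays and 12.71 to 13.05 in the other 9. The lowest control for Pck1 was daughter 662, and the lowest high-fat daughters were 629 and 663. The control daughter 658 was not low, at 12.743 against a control mean of 12.736. Of the 4 lowest arrays for Pck1, 1 was among the 4 with the highest Ucp1. Because the arrays fall into separate clusters by Ucp1, no correlation with Ucp1 is tested here. As a description, the Pearson r of deviations from the group means with Ucp1 was -0.74 for Pck1. It was 0.83 for Agpat2 and 0.91 for Gk. Daughters 662 and 629 also carried muscle signal, whereas 658 and 663 were at 7.29 and 7.21 for the muscle markers, within the range of the arrays without it.

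**Figure D4:**
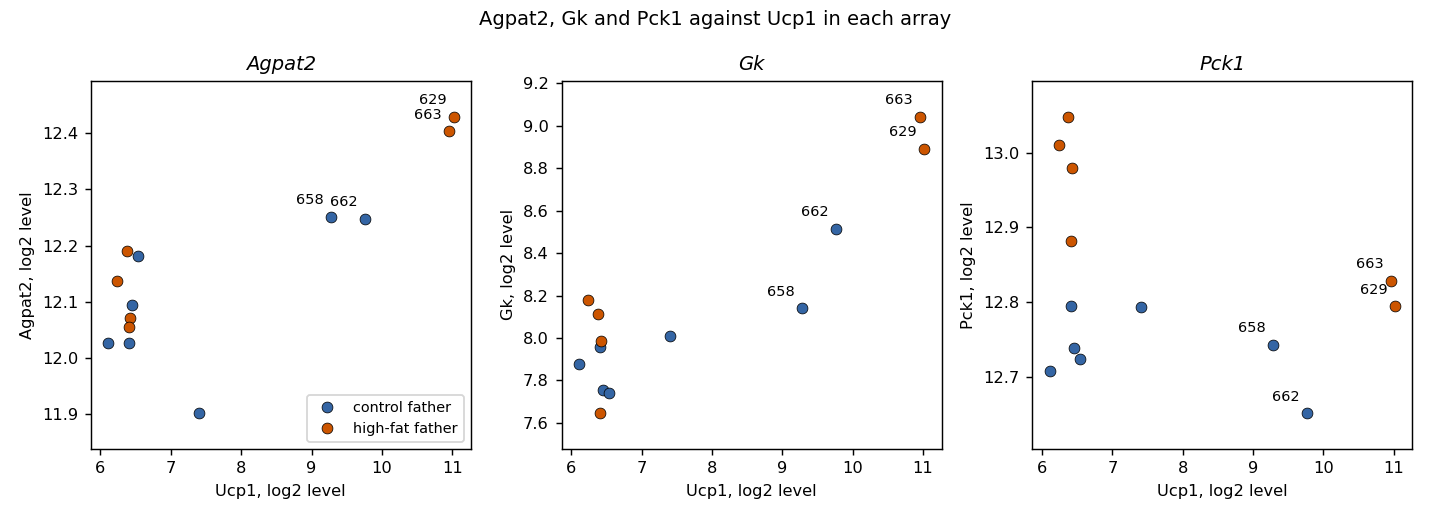
Log2 level of Agpat2, Gk and Pck1 (vertical axes) against the log2 level of Ucp1 (horizontal axis) in each of 13 arrays, blue for control and orange for high-fat fathers. The 4 arrays with the highest Ucp1 are labelled by daughter number, and they are the 4 highest arrays for Agpat2 and hold 3 of the 4 highest for Gk.

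The 10 genes did not vary as one block. Of their 45 pairs, 28 had a positive and 17 a negative r over 13 arrays after removal of the group means. At an unadjusted permutation p under 0.05 there were 7 pairs, and 0 passed adjustment over the 45. The pair with the smallest adjusted p was Agpat2 with Gk, with r 0.77 (permutation p = 0.00191, adjusted 0.0859) and rho 0.60 (adjusted 0.291). It was 0.59 without the 2 farthest arrays, 0.58 and 0.91 in the 2 ranges, and -0.10 among the 9 arrays with low Ucp1, so it rested on the arrays with high Ucp1. Dgat1 and Bscl2 had r 0.72 (permutation p = 0.00667, adjusted 0.150) and rho 0.63 (adjusted 0.291), with 0.53 without the 2 farthest arrays and 0.82 and 0.92 in the 2 ranges. Dgat2 and Gpam were inverse, with r -0.65 (permutation p = 0.0157, adjusted 0.195) and rho -0.60 (adjusted 0.291), and -0.28 without the 2 farthest arrays.

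For each gene, the most similar genes on the array were taken by Pearson r of deviations from the group means over the same 13 arrays, as a description. Gk was most like Prelid3b (0.92), Ucp1 (0.91) and Slc25a20 (0.91), the last of which is the carnitine-acylcarnitine carrier of mitochondria. Agpat2 was most like Mtch2 (0.88), Slc27a2 (0.87) and Rnf152 (0.87). Pck1 was nearest to Trps1 (0.94), Yap1 (0.91) and Cald1 (0.90). Dgat1 was nearest to Creg1 (0.93), Napepld (0.93) and Nadk2 (0.92), and Dgat2 to Hyou1 (0.84), Grap (0.83) and Saraf (0.81), of which Hyou1 is a chaperone of the endoplasmic reticulum. Bscl2 was nearest to Epb41 (0.95), Acsl1 to Prmt1 (0.91), Gpam to Atosa (0.88), Lpin1 to Slc16a14 (0.85) and Gpd1 to Lrp12 (0.84). The first 50 genes of each list held no other member of the set, except that those of Agpat2 held Gk.

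Beyond the 10 genes, a list of 70 other genes of the pathway had 60 with a probe. In the high-fat group 48 of them, or 80%, were higher on average and 12 lower. The share that was higher was 58.0% of all genes and 84.4% of genes above the median level. The median difference of the 60 was 0.09, as it was over all genes above the median level. An unadjusted limma p under 0.05 was reached by 6, or 10% of the 60, all higher, and 0 passed adjustment. The share that was higher at that p was 5.42% of all genes and 8.93% of genes above the median level, so the count lies near that of bright genes.

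By role, fatty acid activation had 5 of 7 genes higher. Counts by role, here and in the next paragraph, stand beside the shares just given, and nothing is read from them. Slc27a1, a fatty acid transport protein, differed by 0.26 ± 0.11 (unadjusted p under 0.05), Acsl4 by 0.27 ± 0.13 and Acsl3 by 0.17 ± 0.09. Among the acyltransferases that act beside Gpam, Gpat3 differed by 0.28 ± 0.12 (unadjusted p under 0.05) and Gpat4 by 0.03 ± 0.08. Beside Agpat2, 4 of 5 genes had a higher mean, and 0 were below an unadjusted p of 0.05, with Agpat3 at 0.14 ± 0.08. Beside Lpin1, 6 of the 7 genes listed under phosphatidate phosphatases were higher, and not all of the 7 encode such an enzyme. Lpin3 was at 0.12 ± 0.06, Cnep1r1 at 0.10 ± 0.07 and Lpin2 at 0.10 ± 0.08. Of the 4 acyltransferases beside Dgat1 and Dgat2, 1 was higher, and the median was -0.05. They were the dim end of the list, with a median level of 6.51, and 31.7% of all genes at or below the median level were higher.

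Glycerol phosphate supply had 7 of 9 genes higher. Mdh1, the cytosolic malate dehydrogenase that acts before Pck1 in glyceroneogenesis, differed by 0.20 ± 0.07 (unadjusted p under 0.05), Tpi1 by 0.14 ± 0.09 and Pck2, the mitochondrial isoform, by 0.07 ± 0.06. Gk2 differed by -0.11 ± 0.07. In lipid droplet formation 5 of 7 genes were higher. Fitm2, which helps droplets bud from the endoplasmic reticulum, differed by 0.19 ± 0.06 (unadjusted p = 0.00507) and Plin1, the coat protein of fat cell droplets, by 0.18 ± 0.06. The branch to phospholipids had 8 of 8 genes higher with a median of 0.12. Cds1 had the largest difference, 0.24 ± 0.11, and Chpt1 the smallest unadjusted p, with 0.12 ± 0.05. The regulators had 10 of 11 higher with a median of 0.10. Nr1h3 (0.19 ± 0.10), Cebpa (0.18 ± 0.09) and Nr3c1 (0.14 ± 0.09), the regulators of smallest p, each had an unadjusted p above 0.05. Pparg, the master regulator of fat cells, differed by 0.09 ± 0.07.

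**Figure D5:**
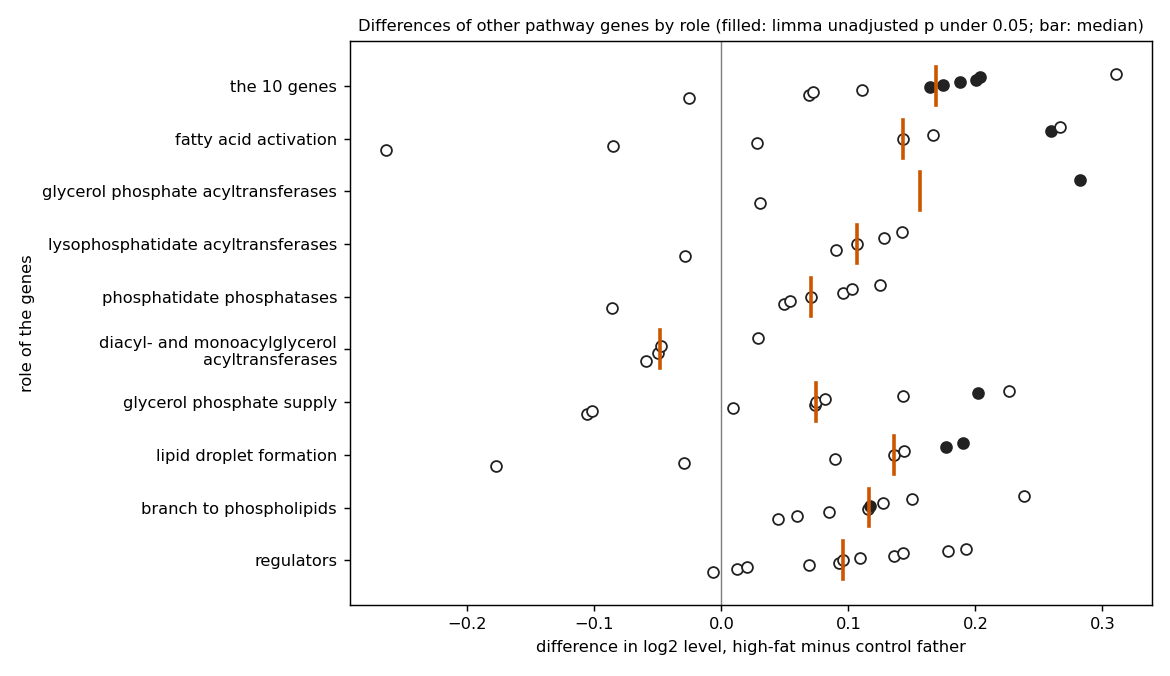
Difference in log2 level between daughters of high-fat and of control fathers (horizontal axis) for the 10 genes and for 60 other genes of the pathway grouped by role (vertical axis). Each point is 1 gene, filled where the unadjusted limma p is under 0.05, and bars are medians. The median is 0.17 for the 10 genes, which were chosen on this comparison, and between -0.05 and 0.16 for the other roles.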

How the data were processed

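Fat of 13 rats was measured on 1 Affymetrix array each. Log2 values of 29214 probes were deposited, which the authors made with RMA and Partek, per the submitters' processing notes, with no versions given in the sources used here. RMA brings the arrays toward a common distribution, and a remaining difference in spread between arrays can move bright and dim genes in opposite directions. Array SDs ran from 1.78 to 1.96. Precision is limited by having 13 arrays. Probes with 1 symbol in the platform annotation (15310) gave 14506 genes, by the brightest probe.

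The father's diet was tested in R 4.3.3 by limma 3.58.1 with lmFit and eBayes, two-sided, Benjamini-Hochberg over all genes, threshold 0.05. The fit was also run on simulated arrays with independent noise for each gene. The check there covered only the estimated size of a doubling or halving, which is larger than any member's difference. Marker list means were compared by exact permutation over 1716 arrangements. Relations used 100000 permutations of deviations from group means (Python 3.11.15, scipy 1.17.1), or all arrangements for up to 9 arrays. The members and lists were chosen with earlier results of these data known. Named genes were the members, up to 3 pathway genes of smallest unadjusted p in each role, the 3 genes most like each member, and genes a result turns on. Pck2, Pparg and Ttr were named after their values were seen. Alternatives were renewed normalization, centring, filters, probe rules, weights, covariates and left-out arrays. Promoter windows came from RefSeq on GRCr8, and protein sequences were not used here.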

Additional observations from a re-analysis of the deposited data

Results flagged for a closer look

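Of 44 groups of arrays checked for a single distant array, 3 had one, and chance gives about 1 in 20. Lpin1 was lowest in the control daughter 631, at 11.08, against 11.30 in the next control. The mean of 6 liver markers was 9.37 in the high-fat daughter 663 and at most 8.31 in the other high-fat daughters. It rested on Ttr, the transthyretin gene, at 12.75 in that array and 6.19 to 6.62 in the others, while Fgb and Apoa1 were at 5.97 and 7.01 there. The mean of 4 endothelial markers was 10.03 in the control daughter 658, against 10.38 in the next control.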

How the results depend on the processing

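In all 31 alternatives, an adjusted threshold of 0.1 included, 0 of the 10 genes passed, and their median difference stayed between 0.07 and 0.19. The count of the 10 with an unadjusted limma p under 0.05 was 5, and it was 2 within daughters 619 to 631 and 0 within 656 to 664, where fewer arrays remain. It was 2 with the adipocyte marker mean as a covariate (Agpat2 and Gk in place of the 5) and 2 with the array SD as a covariate. Leaving out 1 array gave 2 to 6, with 3 without control 658 and 2 without high-fat 624. The pathway count of 6 was 3 after renewed quantile normalization, 12 with array weights, 3 with the number range as a covariate, 10 within 619 to 631, 0 within 656 to 664, 3 without the 4 arrays of strongest muscle signal, and 2 with the array SD as a covariate. It was 4 to 12 with 1 array left out (12 without high-fat 660), and 11 in a setting chosen after seeing the data, without the 3 arrays of smallest spread. Other causes were not tested.

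The difference of Dgat2 turned to -0.061 within 656 to 664 and ranged from -0.0053 (without control 658) to 0.15 with 1 array left out. Gpam ranged from -0.091 to 0.010 (without control 658) in the same way, and turned to 0.038 without the 4 arrays with the highest Ucp1, 0.028 with the adipocyte covariate and 0.0018 with the array SD covariate. Lpin1 was -0.016 without the arrays with the highest Ucp1, and the relation of Agpat2 to Gk was -0.10 there. The relation of Pck1 to the adipocyte markers fell to r 0.54 within 656 to 664. The other 7 genes kept their sign in all 30 settings. The count over all genes was 1155 and ranged from 135 within 656 to 664 to 2508 without high-fat 660. No paired analysis was possible because the labels give no father, litter or pairing of the daughters.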
